A study of Drosophila melanogaster with 8 samples.

Results

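Of the 4282 peaks of Deadpan (Dpn) binding found in all larval neuroblasts (NBs, the neural stem cells of the fly brain) on the X, both arms of chromosomes 2 and 3, and the small 4th chromosome, 339 (7.92%) lay more than 1 kb from every annotated gene and were also covered, by at least 1 bp, by a peak of the medulla NB profile. They are called shared gene-free peaks here. The peaks were selected on measured binding, namely their presence in both peak lists, and on their distance to genes of any biotype in the Release 6 RefSeq annotation. Their being shared and their being far from genes are therefore the rule and not results. The 339 peaks covered 539490 bp and lay between 351 different protein-coding genes.

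Dpn is a bHLH-Orange protein of the Hes family that has long been classed as a repressor. The study cites earlier work in which Dpn may both activate and repress its targets. Dpn acts downstream of Notch, recruits the corepressor Groucho and helps NBs to keep dividing. In the medulla, the largest neuropil of the optic lobe, NBs pass through a series of temporal transcription factors (tTFs) as they age, and the tTF present when a neuron is born shapes its fate. Enhancers of such developmental genes often lie in intergenic DNA, some at a distance from the gene that they control, so the nearest gene is a position and not a known target.

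The pan-NB profile came from Targeted DamID, in which Dpn was joined to the bacterial methylase Dam (FlyORF-TaDa-Dpn) and driven with wor-GAL4, with Dam alone as the control. The medulla NB profile came from NanoDam, in which Dam joined to a nanobody against GFP was driven with the ey enhancer line eyR16F10-GAL4 in larvae that carried Dpn-GFP, with w1118 larvae without the GFP-tagged protein as the control. Both profiles were of 3rd instar larvae. All larvae carried a temperature-sensitive GAL80 and were shifted from 18°C to 29°C to start Dam expression. Each condition had 2 biological replicates, of 30 pooled brains for wor-GAL4 and 40 for eyR16F10-GAL4. The ey line is also active in medulla neurons according to the study, so the medulla NB list may include neuronal binding, and technique, driver and Dpn transgene differ together between the lists and cannot be told apart.

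Each list is labelled as that of the averaged replicates. There is 1 list per profile, with no replicate error, and the depth behind a peak is unknown, since the study states only an aim for fragments per sample. The values below are therefore descriptions of these 2 lists with no test. The lists hold no gene expression, so the labelled cell types could not be checked against markers. The score that the peak caller gave each peak has no common scale in the lists, and peaks were compared by rank within their own list, where rank 1 is the highest score.

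In the pan-NB list, peaks far from genes were shared somewhat less often than the others. Of all pan-NB peaks, 55.1% were overlapped by a medulla NB peak. Among the 701 gene-free pan-NB peaks (16.4% of the list) it was 339, or 48.4%, against 2019 of 3581 (56.4%) for peaks within 1 kb of a gene. Seen from the medulla NB list, 365 of its 494 gene-free peaks (73.9%) were overlapped by a pan-NB peak, against 2418 of all 3474 (69.6%) and 2053 of the 2980 within 1 kb of a gene (68.9%). In this direction the gene-free peaks were the more shared class.

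Shared gene-free peaks nevertheless ranked high in both lists. Their median rank in the pan-NB list was 982 (range 11 to 4282), against 1605 for shared peaks within 1 kb of a gene. Peaks found in the pan-NB list only had a median rank of 2365.5 where gene-free (362 peaks) and 3024.5 within 1 kb of a gene, so gene-free peaks had the better median rank whether shared or not. The median pan-NB score was 5.71, with a range from 1.18 to 8.62, and the largest FDR was 0.0078. The higher-scoring 50% of the pan-NB list held 263 of the 339 (77.6%), whereas it held 64.1% of the shared peaks within 1 kb of a gene and 45.9% of the pan-NB-only gene-free peaks. In the medulla NB list the best overlapping peak had a median rank of 976 (range 1 to 3463), against 1454 where the shared peak was within 1 kb of a gene. Being in both lists is part of the rule, and a high-scoring peak is more often shared, so the rank advantage over pan-NB-only peaks is in part set by the choice.

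**Figure D1:**
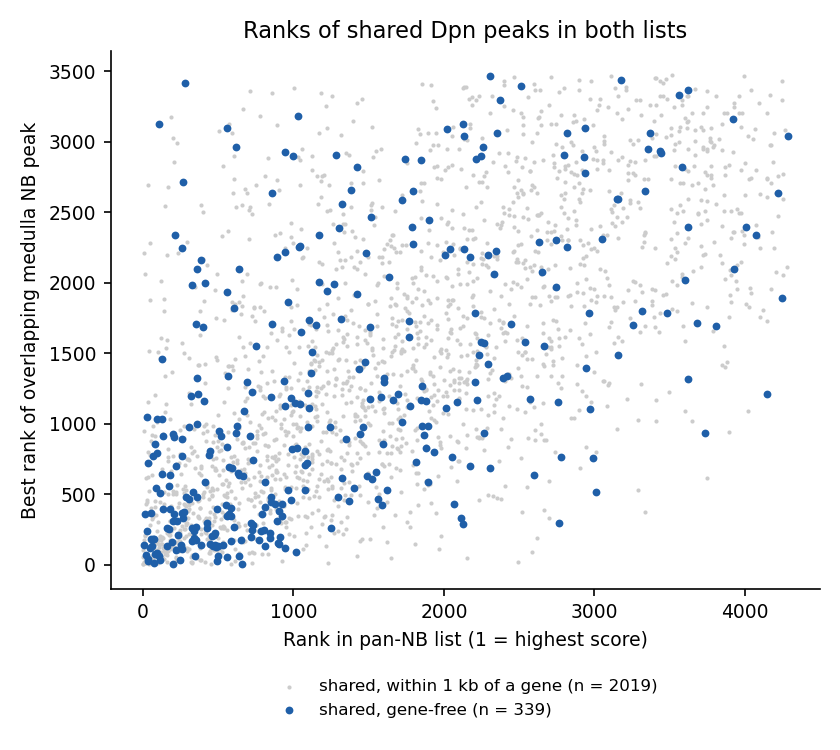
Rank of each of the 339 shared gene-free peaks in the pan-NB list (x axis, 1 is the highest score) against the best rank of an overlapping medulla NB peak (y axis), with the 2019 shared peaks within 1 kb of a gene in grey. Each point is 1 peak, and the gene-free points crowd toward the high-scoring corner and rise together with a Spearman rho of 0.605.

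Ranks in the lists rose together across the 339 peaks, with a Spearman rho of 0.605, against 0.673 across the 2019 shared peaks near genes. These correlations are over peaks of the same lists, which are neighbours on the chromosomes and not independent, and they carry no p. In the 100 highest ranks of the pan-NB list there were 23 shared gene-free peaks, which make up 7.92% of the whole list. Of the 339, 18 overlapped one of the 100 highest medulla NB peaks, and 7 did both. Among the 2019 shared peaks near genes, 20 did both.

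Sharing depended on score in both classes of peak. When the pan-NB list was divided by score into 4 bins of nearly equal size, 180 of 254 gene-free peaks (70.9%) were shared in the highest bin, 83 of 175 (47.4%) in the next, 51 of 143 (35.7%) in the third and 25 of 129 (19.4%) in the lowest. Peaks within 1 kb of a gene gave 82.7%, 68.8%, 49.5% and 28.3% in the same order. Hence at like score the gene-free peaks were the less shared class in each bin. They were also the narrower class in each bin, by medians of 1216.5 bp against 1251 bp in the highest bin and 1326 bp against 1644 bp in the lowest, and wider peaks have more room to overlap. The part of width in the shares was not tested.

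**Figure D2:**
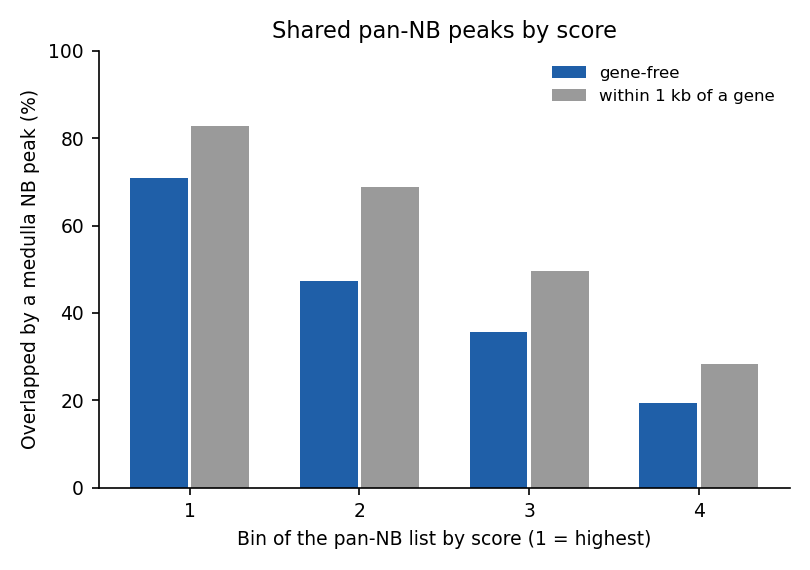
Percent of pan-NB peaks overlapped by a medulla NB peak (y axis) in each of 4 bins of the pan-NB scores (x axis, bin 1 is the highest), for gene-free peaks and for peaks within 1 kb of a gene. Bars are shares of the peaks of 1 averaged list and have no error bars, and the share falls from 70.9% to 19.4% for gene-free peaks and from 82.7% to 28.3% near genes.

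The overlap was usually more than an edge. The 339 peaks were 138 to 5388 bp wide with a median of 1423 bp, and medulla NB peaks covered a median of 88.3% of their length. Of them, 139 lay wholly inside medulla NB peaks, 269 were covered by at least 50%, and 11 were covered by less than 10%. For 11 peaks the best-ranked medulla NB peak met them at a single end base, and 8 of these had no other overlap. Both ends were the same in both lists for 68 peaks and 1 end for 141. DamID peaks are built from fragments between GATC sites, so ends of separate lists can coincide. The medulla NB peaks that overlapped them numbered 356, of which 343 were themselves gene-free.

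Shared gene-free peaks were not evenly spread over the arms. Per Mb of sequence more than 1 kb from any gene there were 11.5 over all arms, with 16.7 on 3R (96 peaks), 12.4 on X (55), 12.1 on 3L (94), 10.4 on 2L (56) and 5.62 on 2R (34). The 4th chromosome held 4 peaks in 0.101 Mb of such sequence. Gene-free pan-NB peaks, shared or not, had 33.3 per Mb on 3R and 16.5 on 2R, against 23.8 over all arms. On 3R 50.3% of them were shared, against 48.4% over all arms, so the high density there was not particular to shared peaks. The share of gene-free pan-NB peaks that were shared was lowest on 2R, with 34 of 100 (34.0%), and highest on X, with 55 of 93 (59.1%). 2R was thus low both in its density of shared gene-free peaks and in the share found in the medulla NB list.

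Most were at moderate distances from coding genes. The median distance to the nearest protein-coding gene was 5520 bp (range 1020 to 55338), against 6774 bp for pan-NB-only gene-free peaks. A protein-coding gene lay within 2 kb of 53 peaks and within 5 kb of 159, whereas 91 had none within 10 kb and 50 had no gene of any biotype within 10 kb. The nearest gene of any biotype was protein-coding for 228 peaks (67.3%) and a long noncoding RNA (lncRNA) for 96 (28.3%). Among pan-NB-only gene-free peaks these shares were 63.5% and 30.7%. The median length of the stretch between flanking protein-coding genes was 25288 bp, against 32597 bp for pan-NB-only peaks.

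**Figure D3:**
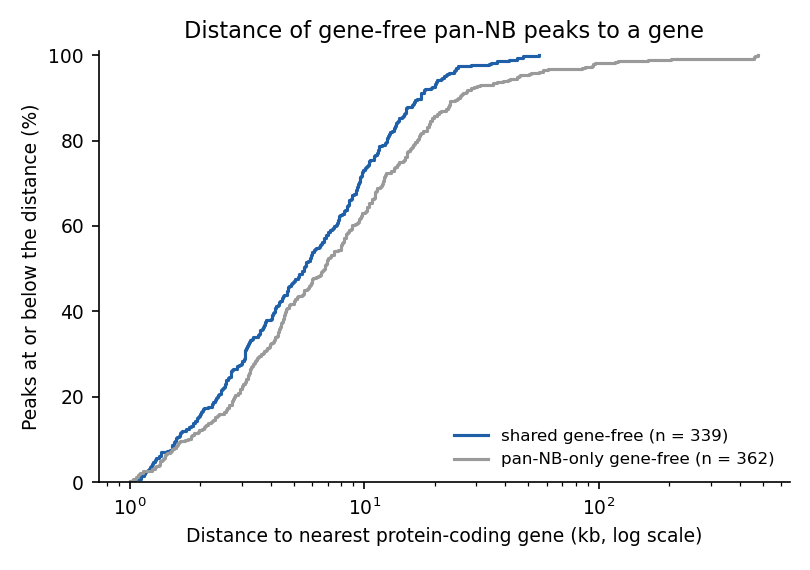
Distance to the nearest protein-coding gene (x axis, kb, log scale) for the shared gene-free peaks and for the gene-free peaks found in the pan-NB list only, as the cumulative percent of peaks (y axis). The curve of the shared peaks lies mostly to the left, with medians of 5520 bp and 6774 bp, and the pan-NB-only peaks reach farther, to 478365 bp.

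The limit of 1 kb divides a continuous range. The 3 shared peaks just inside it lay 998 bp from Ugt37B1, 977 bp from eya and 970 bp from CG1103, with pan-NB ranks of 3331, 746 and 1170. The 3 just outside it lay 1013 bp from lncRNA:CR44856 (pan-NB rank 656, medulla NB rank 5), 1020 bp from CG1239 (ranks 25 and 240) and 1028 bp from mir-9388 (ranks 854 and 446). The pair of peaks farthest from any gene was on 3R between AOX4 and CG43335. There, the peak from 15597454 to 15601572 was 33896 bp from CG43335 (ranks 2961 and 1782), and the peak from 15581237 to 15581817 was 28404 bp from AOX4 (ranks 268 and 331). The next was the peak on 3L from 18349013 to 18351297, between grim and rpr and 25028 bp from lncRNA:CR46353 (ranks 849 and 1186).

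The 12 peaks with the best mean rank over both lists are described next. The first was on X from 2412237 to 2413997, with rank 36 (score 8.05) in the pan-NB list and rank 25 (score 12.21) in the medulla NB list. It had the same ends in both lists and lay 1336 bp from CG12496 and 10928 bp from CG32797. The second, also with the same ends in both lists, was on 3L from 14147701 to 14148143 (ranks 35 and 38), 16377 bp from Sox21b and 27467 bp from D. Both genes encode Sox-domain factors, and D (Dichaete) is one of the medulla tTFs. Another peak of this stretch, from 14165730 to 14166223, was also among the 12 best (ranks 79 and 74) and lay 9387 bp from D.

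The peak on X from 10829294 to 10830132 had rank 73 (score 7.79) in the pan-NB list and rank 12 (score 13.32) in the medulla NB list. It lay 5017 bp from Imp, whose RNA-binding protein marks early larval NBs, and 2620 bp from sbr, the mRNA export receptor. A peak on 3L from 11011014 to 11012785 (ranks 47 and 119) lay 1826 bp from klu, a zinc finger factor needed for NB self-renewal. On 3R, the peak from 29703765 to 29704817 had rank 11 (score 8.62), the best pan-NB rank of all 339, and a medulla NB rank of 138. It lay 6740 bp from dmrt99B, a doublesex-related factor listed with the medulla tTFs, and 9688 bp from Obp99d, an odorant-binding protein gene.

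The remaining members of the best 12 lay between less studied or unrelated genes. On X, the peak from 20755573 to 20756386 (ranks 112 and 33) lay 4685 bp from shakB, a gap junction innexin. On 2L, the peak from 6841436 to 6842497 (ranks 107 and 61, same ends in both lists) lay 2441 bp from sens-2, a zinc finger gene related to senseless, and 9818 bp from Rca1, a regulator of Cyclin A. The rest lay between CG11550 and CG42693 (ranks 86 and 72), between CG17746 and CG12078 (ranks 93 and 85), between corto and CG43131 (ranks 61 and 130) and between CG45544 and CG14506 (ranks 19 and 65). The medulla NB peak with rank 1 (score 15.28) also overlapped a shared gene-free peak, on 3R from 30275613 to 30276382 (pan-NB rank 204), 1550 bp from heca. It is outside the rule for named peaks and was chosen after its values were seen.

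Shared gene-free peaks often lay in the same stretch as another. They fell in 192 stretches between neighbouring protein-coding genes, of which 110 held 1 peak, 48 held 2 and 34 held 3 or more, so that 229 of the 339 peaks shared their stretch with another. The same count was not made for pan-NB-only gene-free peaks, so the grouping is not shown to be particular to shared peaks. Neighbouring peaks may be pieces of 1 bound region, and counts of peaks are not counts of separate elements.

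The stretch with the most was on 3R between CG45544 and CG14506. It held 10 shared gene-free peaks from 29260297 to 29288986, in a stretch of 36317 bp, of which they covered 33.0%. The gene stg (string), which encodes the Cdc25 phosphatase that drives entry into mitosis, lies 685 bp beyond CG45544, and the peaks were 4497 to 31354 bp from it. stg was named after the values were seen. Pan-NB ranks ran from 19 at the peak from 29264442 to 29266609 to 2291 at the peak from 29283868 to 29284898. That last peak met its medulla NB peak at a single end base, whereas the peak with rank 19 lay wholly inside the medulla NB peak with rank 65. The highest-ranked peaks lay toward the stg side, and the 3 members on the CG14506 side had pan-NB ranks of 2008, 2291 and 2175.

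The stretch between Sox21b and D, 44285 bp on 3L, held 6, with pan-NB ranks of 35, 2012, 200, 93, 79 and 264 from left to right. Their medulla NB ranks were 38, 1110, 925, 1030, 74 and 107 in the same order. Another 4 gene-free pan-NB peaks of this stretch were not overlapped by a medulla NB peak. On the other side of D, towards nan (nanchung, an ion channel of hearing), a further 2 peaks lay 1870 and 5380 bp from D, with pan-NB ranks of 457 and 306. D thus had 8 shared gene-free peaks beside it.

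The gene corto, which encodes a chromatin protein that acts with Polycomb and Trithorax group genes, had shared gene-free peaks on both sides. Between corto and CG43131 there were 6 in 21605 bp, covering 45.1% of the stretch, and none of its gene-free pan-NB peaks was pan-NB only. Their pan-NB ranks lay between 61 and 846, and 1 of them, from 5101643 to 5103057 on 3R, overlapped the medulla NB peak with rank 53. On the other side, between plh and corto, 5 peaks were spread over 66747 bp, with pan-NB ranks from 574 to 3253. The peaks were denser and higher in rank between corto and CG43131 than between plh and corto.

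On X, 5 peaks lay between run and CG1324 in 37133 bp, all of them at least 20110 bp from run, which encodes the Runt-domain factor of the pair-rule class. Their pan-NB ranks were 130, 1314, 363, 264 and 814, and their medulla NB ranks 1462, 1743, 1000, 893 and 584. The peak nearest to a gene of the stretch was 1165 bp from CG1324. No shared peak lay within 1 kb of run itself, although 4 pan-NB peaks did.

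**Figure D4:**
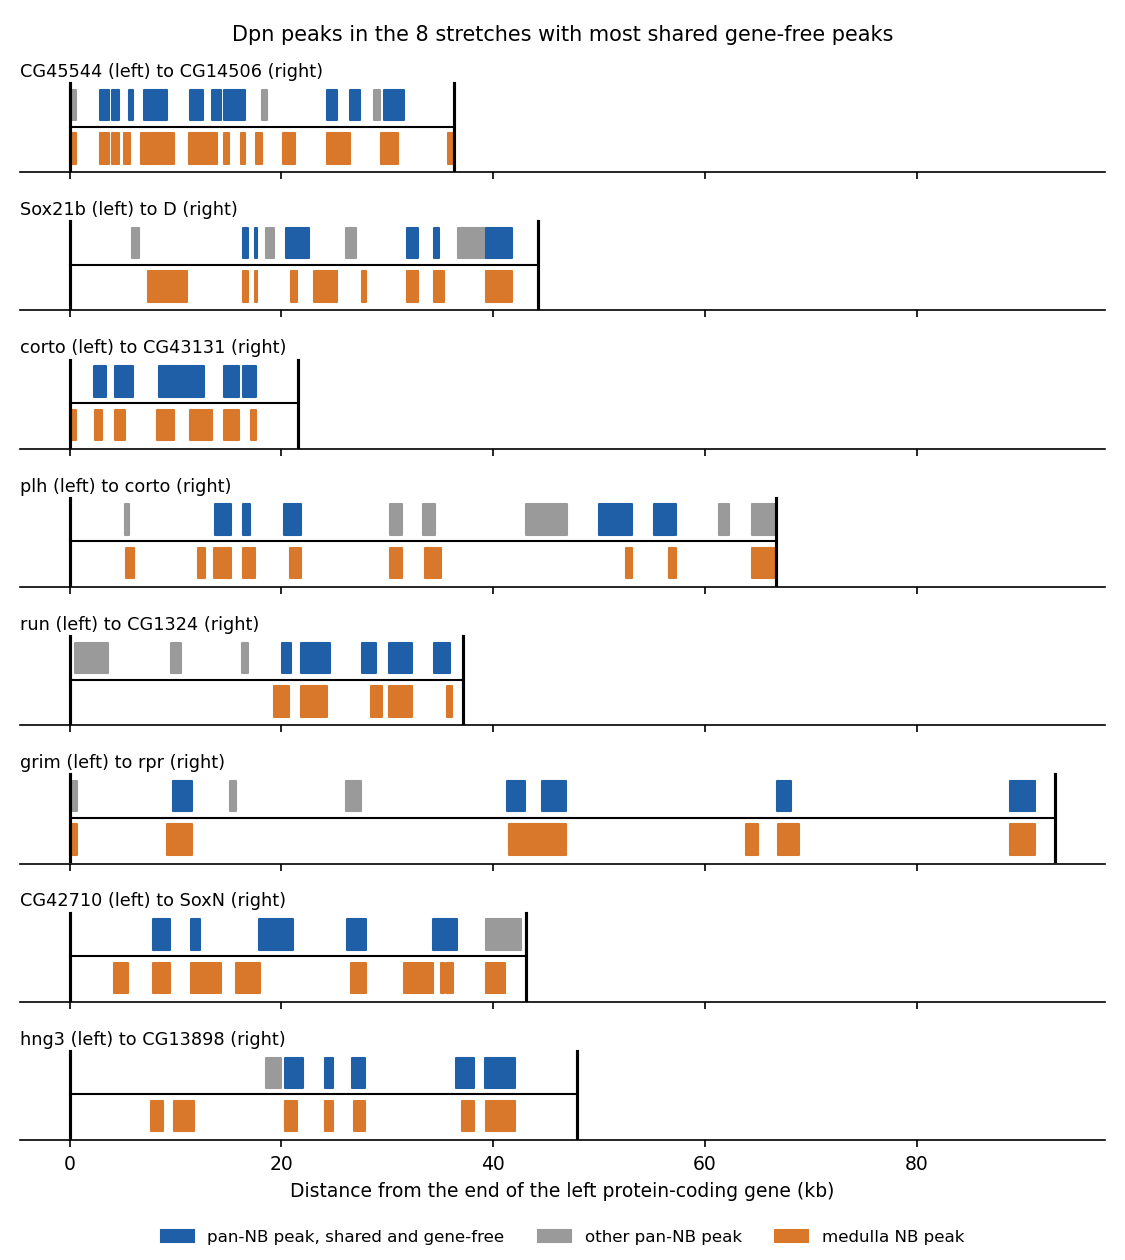
Peaks of both lists in 8 stretches between neighbouring protein-coding genes, drawn by distance from the left gene (x axis, kb). Upper bars are pan-NB peaks (blue where shared and gene-free, grey otherwise), lower bars are medulla NB peaks, vertical lines are the ends of the flanking genes, and the stretch between CG45544 and CG14506 holds the most shared gene-free peaks, with 10.

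The genes beside these peaks were counted in lists. Over all protein-coding genes, 351 of 13922 (2.52%) flanked a shared gene-free peak, and 9.63% of the 3645 genes that border any sequence more than 1 kb from genes. Of 769 genes in 17 lists of developmental, neuronal and housekeeping genes, 91 (11.8%) flanked one. Of these 91, 67 were among the 209 transcription factor genes of the lists. Stretches with a listed gene held 19.4 shared gene-free peaks per Mb of sequence over 1 kb from genes, and the other stretches held 8.69. The lists were chosen with earlier results of these data known, so these densities may in part follow the choice. Some genes, such as cas and mirr, are in 2 lists, and a peak between genes of different lists counts for each, as between Sox21b and D. The list densities thus repeat some peaks and are not independent. Densities of pan-NB-only gene-free peaks were not computed per list.

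**Figure D5:**
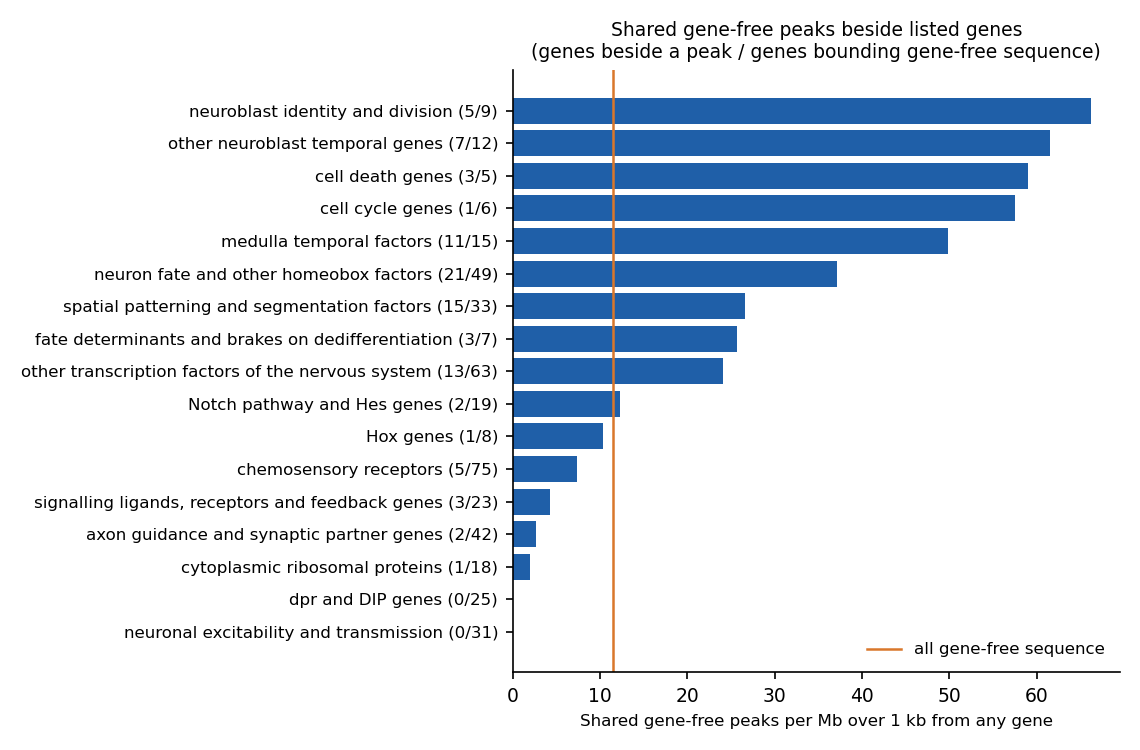
Shared gene-free peaks per Mb of sequence more than 1 kb from any gene (x axis) in the stretches beside the genes of each of 17 lists (y axis, with the number of genes beside a peak of those that border such sequence). Bars are single values without error, and the line is the 11.5 per Mb of all such sequence. The lists were chosen with earlier results of these data known. A peak can count for more than 1 list. The bars range from 66.2 for NB identity and division to 0 for the listed dpr and DIP genes and the listed neuronal excitability genes.

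Of the 15 medulla temporal factor genes, 11 had at least 1 shared gene-free peak beside them, 36 peaks in all, at 49.8 per Mb of such sequence. The lists of NB identity and division, other NB temporal, cell death and cell cycle genes had higher densities, and the neuron fate list had more genes beside a peak. D, with 8 peaks, is described above. SoxN, another Sox factor of early nervous system development, had 9 peaks beside it, 4969 to 33665 bp away. The best was on 2L from 8808740 to 8810534, with ranks 66 and 178. Peaks lay on both sides of SoxN, 5 towards CG42710 and 4 towards CG32986.

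The 3 peaks beside dmrt99B had pan-NB ranks of 388, 11 and 354 and medulla NB ranks of 139, 138 and 267, at 3101, 6740 and 9222 bp. Each lay wholly inside medulla NB peaks. Beside tll, the nuclear receptor gene of a late tTF, a peak on 3R from 30857946 to 30860555 lay at 3546 bp (ranks 233 and 209) and another, from 30865662 to 30865978, at 11262 bp (ranks 588 and 348). Thus the genes of these tTFs had peaks in the upper ranks of both lists.

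The forkhead genes slp1 and slp2, which act in the middle of the series, lie next to each other on 2L. One shared gene-free peak lay between them, from 3829452 to 3829855, 2353 bp from slp1 and 6985 bp from slp2 (ranks 1724 and 2587). The best beside slp2 was from 3848792 to 3849374, 9607 bp away (ranks 184 and 633). Each of the slp genes had 3 such peaks, the one between them included.

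The 4 peaks beside opa, a Zic-type zinc finger gene, had pan-NB ranks of 1813, 2221, 719 and 2085 and lay 1984 to 16815 bp from it. The homeobox genes hth, scro, B-H1 and B-H2 had 1 or 2 peaks each. Those beside hth, the gene of the first tTF, were 50496 and 54443 bp away. No shared gene-free peak lay beside ey, hbn, erm or gcm. All 15 temporal factor genes, these 4 included, had a shared peak within 1 kb.

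Genes of NB identity and division had the highest density, 66.2 per Mb, from few genes, since 5 of 24 genes flanked a peak and 9 bordered such sequence. These were klu, cas, wor, sna and esg, all zinc finger genes, of which wor, sna and esg form the Snail family cluster on 2L. The 2 peaks beside wor were from 15427584 to 15428180 (pan-NB rank 496) and from 15428936 to 15430597 (ranks 438 and 780), 2004 and 3356 bp away. The first met the medulla NB peak with rank 28, which is itself within 1 kb of a gene, at a single end base, and most of its overlap, 430 bp, was with the medulla NB peak with rank 1454. Since wor-GAL4 carries regulatory sequence of wor, peaks near wor lie by the source of a driver used in the pan-NB arm, and the part of this was not tested. The 1 peak beside sna was 2654 bp away (ranks 1349 and 893) and the 1 beside esg 2759 bp away (ranks 943 and 2930).

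The gene cas (castor), a late factor of the embryonic temporal series, had 3 peaks in the stretch to CG1239, with pan-NB ranks of 117, 54 and 25 and medulla NB ranks of 505, 364 and 240. All were in the upper part of both lists. Of the other NB temporal genes, 7 of 18 flanked a peak, at 61.5 per Mb. Besides cas and Imp these were mirr, Eip93F, hb, nub and svp. The second peak beside Imp, from 10826844 to 10827666 on X, lay 2567 bp away (ranks 733 and 284), and the peak beside hb, the gene of the first embryonic temporal factor, lay 1122 bp away (ranks 1485 and 2209).

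Fate determinants and brakes on dedifferentiation had 3 of 13 genes beside a peak. The BTB gene lola had 2, the better on 2R from 10551027 to 10551920, 7736 bp away (ranks 535 and 140). The peak beside pros, the homeobox determinant passed to the ganglion mother cell, was 9626 bp away and low in both lists (ranks 2932 and 2891). chn had 1 peak, 43779 bp away (ranks 999 and 2897). In the Notch pathway and Hes list, 2 of 32 genes flanked a peak. Ser, a Notch ligand, had a peak with pan-NB rank 107 and medulla NB rank 3129 at 2416 bp, and hry, a Hes repressor, had one with ranks 3558 and 3335 at 9229 bp. The Hox list had 1 of 8 genes, lab (ranks 4222 and 2636). The Notch and Hox lists had 12.3 and 10.4 peaks per Mb, near the 11.5 of all such sequence, and the fate determinants had 25.7.

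Among neuron fate and other homeobox factors 21 of 58 genes flanked a peak, at 37.2 per Mb. The best by mean rank were zfh1 (ranks 196 and 157, at 3733 bp), HGTX, the Nkx6 gene (ranks 17 and 359, at 5976 bp), the Iroquois gene ara (ranks 447 and 148, at 2308 bp), the LIM homeobox gene Awh (ranks 91 and 540, at 20012 bp), the POU gene vvl (ranks 97 and 792, at 44646 bp) and exex (ranks 218 and 699, at 1572 bp). HGTX, ara, vvl and exex had no shared peak within 1 kb. The glial gene repo had 2 shared gene-free peaks, 1243 and 1523 bp away (pan-NB ranks 554 and 806). No pan-NB peak lay within 1 kb of repo, whereas 1 medulla NB peak did. This gene was named after its values were seen.

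The spatial patterning and segmentation list had 15 of 36 genes beside a peak, at 26.6 per Mb. The homeobox gene oc had the best, on X from 8615663 to 8616345 (ranks 158 and 134), 13814 bp away. Among the next were hkb (ranks 264 and 366), run and drm (ranks 691 and 1298). Other transcription factors of the nervous system had 13 of 79 genes beside a peak, at 24.1 per Mb. After Sox21b and sens-2 came tj (ranks 723 and 243), ato (ranks 588 and 404), fkh (ranks 413 and 586) and fd59A (ranks 842 and 190).

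Cell death genes flanked peaks through 1 cluster. The pro-apoptotic genes rpr, grim and skl on 3L, whose products block the inhibitor of apoptosis Diap1, had 9 shared gene-free peaks among them. The list had 59.0 per Mb. Of these peaks, 5 lay in the 93117 bp between grim and rpr, with pan-NB ranks of 2347, 900, 849, 1869 and 2260 and medulla NB ranks of 2228, 155, 1186, 917 and 2965. Another 3 lay between rpr and skl. rpr had 8 beside it, the nearest at 1958 bp, and no pan-NB peak within 1 kb. In the cell cycle list only rux, an inhibitor of mitotic Cyclin A activity, flanked any, with 3 peaks between mab-21 and rux (pan-NB ranks 875, 943 and 207). The list holds 23 genes, of which 6 border sequence more than 1 kb from genes. Its 57.6 per Mb came from these 3 peaks. With distances to protein-coding genes only, 3 genes of the list flanked a peak. Rca1, the regulator of Cyclin A described above, flanked a shared gene-free peak but is not in the list. The peaks between CG45544 and CG14506 were not counted for stg, since CG45544 lies between them and stg.

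Lists of terminal neuronal genes had few or none, and so had the guidance, signalling and ribosomal protein lists. None of 32 dpr and DIP genes, which encode cell surface partners in synaptic matching, flanked a shared gene-free peak. Nor did any of the 49 genes listed for neuronal excitability and transmission. Of these genes, 25 and 31 border gene-free sequence, in that order. The synaptic gene Snap25 and the channel genes shakB and nan flanked such peaks but were not listed, so the absence holds for the listed genes only. Listed axon guidance and synaptic partner genes had 2 of 60 (klg and caps), at 2.67 per Mb. The guidance genes comm and drl, with 3 such peaks each, and Drl-2 and Ptp99A, with 1 each, were not in the list. The value of 2.67 thus depends on which genes were listed. Signalling ligands, receptors and feedback genes had 3 of 48 (fz4, pyr and ths), at 4.22. Chemosensory receptors had 5 of 179 genes, at 7.35 per Mb, the best being Gr93a (ranks 330 and 1981). Cytoplasmic ribosomal protein genes had 1 of 92, RpL13 (ranks 200 and 312), at 1.92 per Mb. These values were below the 11.5 per Mb of all such sequence, whereas the other lists, apart from the Hox list, were above it.

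Genes beside a shared gene-free peak often also carried Dpn peaks close by. Of the 351 flanking genes, 133 (37.9%) had a shared peak within 1 kb, against 16.1% of all protein-coding genes and 15.3% of those that border gene-free sequence. Of the 351, 160 (45.6%) had no pan-NB peak within 1 kb, a share that was not computed for all protein-coding genes. Of the 339 peaks, 66 lay between genes that both had a shared peak within 1 kb, 165 had it at 1 of the flanking genes, and 108 at neither. For these 108, the binding found in both lists was near neither of the neighbouring coding genes. The like split was not computed for other gene-free peaks.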

How the data were processed

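Dpn binding was profiled by DamID in larval brains, in 4 conditions of 2 replicates. The authors made binding profiles with damidseq_pipeline (default options), took the mean of the replicates, and ran find_peaks (min-quant 0.8, FDR below 0.01). The methods describe peak calls per replicate, whereas the lists used here are named as those of averaged profiles. Versions and build: not given in the sources used here. The deposited lists give positions, a score per peak with no stated scale, and its FDR. They hold no reads, and the study states only an aim for mappable fragments per sample. Averaging hides replicate differences. Ties in score share the better rank.

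Peaks on 6 arms were kept (7 pan-NB peaks on Y were left out). Distances were counted to 17684 genes, 13922 protein-coding, of the Release 6 RefSeq table, whose gene coordinates are not printed because the lists name no build. The table used here holds no strand, exons or sequence, so peak sequences and motifs are not given. Flanking genes are the nearest protein-coding genes on each side that do not overlap the peak. Members and gene lists were chosen with earlier results of these data known. 4 list names were not matched. The named peaks were the 12 best by mean rank, the 5 fullest stretches, up to 6 genes per list, and those nearest to and farthest from the 1 kb limit. Others were chosen after their values were seen. Some genes that the rule names are not reported here. Scripts ran in Python 3.11.15 with scipy 1.17.1, pandas 2.3.3 and numpy 2.4.6. The overlap code was tested on 900 simulated peaks. Alternatives were the gene distance, 50% cover, an FDR below 0.001, the higher-scoring 50% of each list, joined peaks and protein-coding genes only.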

Additional observations from a re-analysis of the deposited data

How the results depend on the processing

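The alternatives were run for the counts of peaks and flanking genes, the shares, the median distance and ranks. They were also run for the gene lists and the 5 fullest stretches. Most of these values have no direction that could reverse. In each alternative, gene-free pan-NB peaks were less often shared than peaks near genes. Densities per Mb, arms and score bins were not recomputed. The number of shared gene-free peaks, 339, became 136 with a gene distance of 5 kb and 213 in the higher-scoring 50% of each list, and stayed between 266 and 483 under the others. The 351 flanking genes became 150 at 5 kb. The median distance to a protein-coding gene, 5520 bp, follows the distance rule by construction, with 4626 bp at 500 bp, 7014 bp at 2 kb and 10167 bp at 5 kb. With 50% cover, 38.4% of gene-free peaks and 45.5% of peaks near genes were shared, against 48.4% and 56.4%. For peaks near genes the share was 52.1% at an FDR below 0.001 and 58.9% in the higher-scoring 50%. The median pan-NB rank was 22.9% of the list and became 28.9% in the higher-scoring 50%. The cause of these shifts was not tested. At 5 kb, 6 of the medulla temporal factors and 1 gene of NB identity and division still flanked a peak. The Notch list went to 0 at 5 kb, at an FDR below 0.001 and in the higher-scoring 50%, and the Hox list at these and at 2 kb and 50% cover. The Notch list rose from 2 to 4 at 500 bp. With protein-coding genes only, the Notch list rose to 5, the cell cycle list from 1 to 3 and the ribosomal list from 1 to 2. In the higher-scoring 50%, the spatial patterning list fell from 15 to 6, the other NB temporal list from 7 to 3 and the chemosensory list from 5 to 1. The fate determinants fell from 3 to 1 at 5 kb, at an FDR below 0.001 and in the higher-scoring 50%. The signalling list fell from 3 to 1 at 2 kb, with 50% cover and with joined peaks, and to 0 at 5 kb. Counting only peaks whose medulla NB peak was also gene-free, an alternative chosen after seeing the data, gave 328. No paired analysis was possible because each profile is 1 list of averaged replicates, and no replicate could be left out. The motif alternative was not run, since no genome sequence was used here. The depth behind each peak is unknown, which limits what a missing overlap shows.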

Other observations

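Some shared gene-free peaks were nearest to noncoding genes, described here after their values were seen. On 3R, lncRNA:CR45568 was the nearest gene of 5 of them, 2350 to 6760 bp away, with a best pan-NB rank of 330, all in the stretch between CG45544 and CG14506. On 3L, lncRNA:CR45887 was the nearest gene of 3, 12599 to 16650 bp away, which are the first 3 of the stretch between Sox21b and D. The nearest gene of the better peak beside lola was lncRNA:acal, at 3767 bp. A tRNA gene, tRNA:Ile-TAT-1-2, was the nearest of 3 peaks between hng3 and CG13898, a stretch of 47937 bp that held 5 peaks and has no listed gene. A microRNA gene was the nearest for 2 peaks, mir-9388 on 3L and mir-9385 on the 4th chromosome.

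The zinc finger genes disco and disco-r on X had several peaks beside them. The 7 beside disco had pan-NB ranks of 2023, 1848, 3735, 1788, 1053, 1173 and 2944, and 3 of them lay between disco-r and disco.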
